A study of Mus musculus with 36 samples.

Results

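The genes described here encode enzymes of urea synthesis and of amino acid breakdown in mouse liver. They were chosen by gene symbol from a list of 10: Cps1, Otc, Ass1, Asl, Arg1, Tat, Sds, Gls2, Tdo2 and Hal. The probe annotation used here named 8 of the 10, each with 1 probe set, out of 22180 genes with a probe set of their own. Sds and Gls2 are not analysed here.

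RNA of whole livers was measured on Affymetrix arrays. TB mice were a genetically engineered line whose disease status was given as lung adenocarcinoma. WT mice were the comparison, and both were of C57BL/6 background and kept in light/dark cycles. Livers were taken every 4 h, at Zeitgeber times (ZT, hours after lights on) 0, 4, 8, 12, 16 and 20, and each of the 12 groups had 3 arrays, 36 in all. The labels do not give the age of the mice, and they do not say whether the 3 arrays of a group came from separate animals, so that a p-value reflects array-to-array spread, which may be technical. In whole liver, fewer cells of a type and less RNA per cell cannot be told apart. The question asked of these genes was whether their level or their daily course in the liver differed between tumour-bearing and WT mice.

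Ammonia released from amino acids is made into urea in the liver, mainly by the hepatocytes around the portal vein. Cps1 and Otc act in mitochondria, where Cps1 fixes ammonia as carbamoyl phosphate and Otc joins it to ornithine to make citrulline. Ass1, Asl and Arg1 act in the cytosol, where Ass1 adds aspartate to citrulline, Asl splits argininosuccinate into arginine and fumarate, and Arg1 releases urea and renews ornithine. Tat, Tdo2 and Hal begin the breakdown of tyrosine, tryptophan and histidine. Glucocorticoids, glucagon, feeding and the circadian clock are known to act on many of these enzymes.

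Levels are given as log2(intensity + 16), so 1 unit is about a doubling for bright probe sets and less for dim ones. Ass1 was dim on these arrays, between 60.8 and 173 intensity units in TB livers and between 40.3 and 216 in WT livers, and its differences are understated on this scale. The lowest single value of the other 7 probe sets was 958 units, for Asl in a WT liver, and Cps1, for example, lay between 5296 and 8046 units in TB livers and between 5947 and 7542 in WT livers. Levels of different genes are not set against each other, since each probe set has its own sensitivity.

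The 36 arrays fell into 2 sets that the labels do not name, 24 in a larger and 12 in a smaller set, with each genotype and ZT represented by 2 arrays in the larger and 1 in the smaller. The sets were drawn from these same data, on probe sets without a symbol. Arrays were split at the widest gap along the first principal component of deviations from group means, which held 28.6% of their variance. Asl and Arg1 differed most between these sets: their levels in the smaller set were lower by 0.36 and 0.34 on average, and lay below the group mean in 11 of 12 and in 12 of 12 of its arrays. Ass1 was higher in the smaller set by 0.28, with 2 of 12 arrays below the group mean. Hal was lower there by 0.18, and Cps1, Otc, Tat and Tdo2 by between 0.018 and 0.061. Results are therefore also given within the sets. WT ZT 12 replicate 3 carried skeletal muscle RNA, with Ttn at 16.77 against at most 6.19 in the other 35 arrays and all 8 muscle markers at their highest there. Without it the daily courses of Asl and Hal in WT livers had adjusted p = 0.0095 and 0.0092 in limma, and other effects are given where a sign turned. The summed level of 10 hepatocyte markers such as Alb and Ttr ran between 64804 and 73545 intensity units in TB livers and between 59022 and 73978 in WT livers, and 0 of the 10 passed the test between genotypes. The same held for 8 other periportal and 11 pericentral markers, with 7 of the 11 higher in TB livers. Of 8 Kupffer cell markers 7 were higher in TB livers (median 0.11) and 0 passed, with sums between 1051 and 2475 units in TB livers and between 760 and 2385 in WT livers. Of 7 neutrophil markers 5 were higher in TB livers (median 0.05). Their sums were dim, between 192 and 313 units in TB livers and between 176 and 312 in WT livers. Of the 7, 1 rose, Elane (difference 0.26, adjusted p = 0.044 in limma, named after its value was seen). Of all 22180 genes, 11943 were higher in TB livers and 26 (0.117%) rose. The part of these cells in the results was not tested.

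No enzyme of the urea cycle and none of the breakdown enzymes differed between TB and WT livers in its mean over the 6 ZT. In limma's test with Benjamini-Hochberg adjustment over all 22180 genes, 0 of 8 genes passed an adjusted p of 0.05, against 39 of all genes (0.176%). At an unadjusted p under 0.05 there was 1 of 8, Otc, against 2449 of all genes (11%). The 95% intervals of the 8 differences reached from 0.803-fold to 1.17-fold, so a mean change beyond that range lies outside them. By sign, 5 of the 8 were lower in TB livers, where 46.2% of all genes were.

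Of the mitochondrial enzymes, Otc had the largest difference of the 8. Its mean level was 11.88 in TB livers and 12.02 in WT livers, a difference of -0.13 (SE 0.054, 95% interval -0.24 to -0.023, 0.912-fold, adjusted p = 0.34 in limma), with TB lower at 5 of the 6 ZT. The difference was -0.18 in the larger array set and -0.03 in the smaller. At ZT 8 Otc measured 11.36, 12.06 and 11.88 in TB livers, against 12.16, 12.06 and 11.98 in WT livers. Replicate 1 of TB stood low there, and the ranges overlapped. Cps1 averaged 12.65 in TB livers and 12.68 in WT livers, a difference of -0.03 (SE 0.043, adjusted p = 0.84 in limma). The Cps1 difference was -0.02 in the larger array set and -0.05 in the smaller.

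The cytosolic enzymes differed by no more. Ass1 averaged 6.91 in TB livers and 7.00 in WT livers (difference -0.09, SE 0.11, adjusted p = 0.81 in limma). Its difference was -0.04 without WT ZT 20 replicate 3 and -0.05 without the WT array with muscle RNA. Asl averaged 10.70 in TB livers and 10.66 in WT livers (difference 0.04, SE 0.094, adjusted p = 0.92 in limma). Arg1, whose levels were 11.45 in TB livers and 11.43 in WT livers, had the difference nearest to 0 (0.01, SE 0.081, adjusted p = 0.97 in limma). The signs of the Asl and Arg1 differences rested on single arrays. Without TB ZT 0 replicate 1 they were -0.02 and -0.03, and without the WT array with muscle RNA Arg1 was at -0.0034. Within the array sets the Asl difference was 0.13 in the larger and -0.14 in the smaller. That of Arg1 was 0.05 in the larger and -0.06 in the smaller, and that of Ass1 -0.11 and -0.05.

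Among the breakdown enzymes, Tat averaged 12.82 in TB livers and 12.76 in WT livers (difference 0.07, SE 0.057, adjusted p = 0.71 in limma). Tdo2, the hepatic enzyme that opens the kynurenine pathway, averaged 11.55 in TB livers and 11.64 in WT livers (difference -0.09, SE 0.045, adjusted p = 0.49 in limma), with TB lower at 5 of 6 ZT. Hal averaged 10.75 in TB livers and 10.77 in WT livers (difference -0.02, SE 0.087, adjusted p = 0.95 in limma). With single arrays left out the Hal difference ran from -0.07 to 0.01, and its sign turned in 5 of 36 fits. Within the larger array set the differences were 0.11 for Tat, -0.08 for Tdo2 and -0.08 for Hal. Within the smaller set they were -0.01, -0.09 and 0.08.

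**Figure D1:**
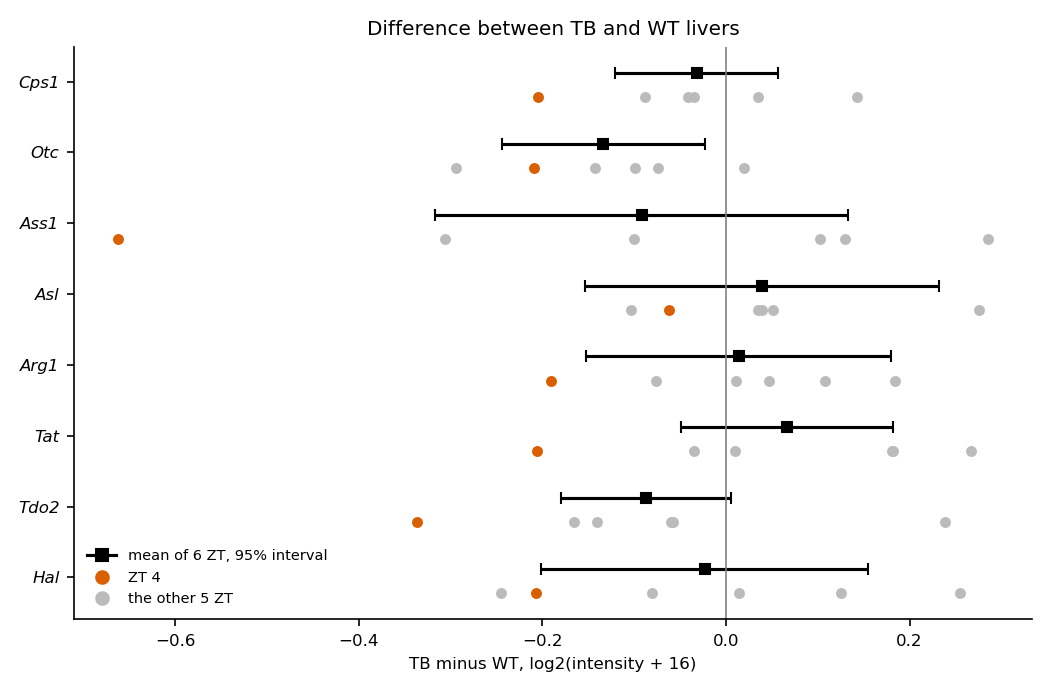
TB minus WT in log2(intensity + 16) for the 8 genes (vertical axis); squares are the mean over 6 ZT with its 95% interval, orange points the difference at ZT 4 and grey points those at the other 5 ZT (3 arrays a group). The intervals of 7 genes span 0 and that of Otc reaches from -0.24 to -0.023, while the ZT 4 points of all 8 genes lie left of 0.

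At single times, ZT 4 stood out by sign: all 8 genes were lower in TB livers there, with a median difference of -0.21, where 51.3% of all genes were lower with a median of -0.0048. The 8 genes were read on the same arrays, so their signs are not separate observations. ZT 4 was singled out after the values were seen. Of the 119 other genes of the pathway lists, 91 were lower at ZT 4 (median -0.09). None passed the test, since the lowest adjusted p of the 8 was 0.9997 in limma and no gene in the whole table passed at ZT 4 (0%). At ZT 0, by contrast, 7 of the 8 were higher in TB livers (median 0.14), where 44.2% of all genes were lower. The other 4 times had between 3 and 6 of the 8 lower. Of all comparisons at single times, 1 gene passed, at ZT 8 (0.00451%), and it was none of the 8. At an unadjusted p under 0.05 the genes were Tdo2 at ZT 0 (1 of 8, against 4.74% of all genes), Ass1 and Tdo2 at ZT 4 (2 of 8, against 3.26%) and Otc at ZT 8 (1 of 8, against 5.3%). None reached it at ZT 12, ZT 16 or ZT 20, where 7.41%, 5.38% and 1.81% of all genes did.

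The 3 TB arrays lay below the 3 WT arrays at ZT 4 for 4 of the 8 genes, Cps1, Ass1, Tat and Tdo2, where 9.38% of all genes had such groups without overlap in either direction. At ZT 4 Tdo2 measured 11.36, 11.55 and 11.58 in TB livers, against 11.69, 11.92 and 11.88 in WT livers, a difference of -0.34 (SE 0.11, adjusted p = 0.9997 in limma). It was -0.34 in the larger array set and -0.33 in the smaller. Ass1 had the largest difference at this time: it measured 6.85, 6.64 and 6.59 in TB livers, against 7.38, 7.31 and 7.37 in WT livers (difference -0.66, SE 0.27, adjusted p = 0.9997 in limma). The WT arrays of Ass1 spanned 0.06 at ZT 4 and 0.13 at ZT 0, and between 0.79 and 1.09 at ZT 8 to 20.

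Tat at ZT 4 gave 12.44, 12.51 and 12.63 in TB livers, against 12.77, 12.79 and 12.64 in WT livers, a difference of -0.21. Cps1 at that time gave 12.44, 12.58 and 12.62 in TB livers, against 12.65, 12.85 and 12.75 in WT livers, a difference of -0.20. The gap between the groups was 0.0095 for Tat and 0.035 for Cps1, narrower than that of Tdo2 (0.11) and of Ass1 (0.47). Otc, Asl, Arg1 and Hal overlapped between the genotypes at ZT 4.

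Outside ZT 4, groups without overlap were found for 3 of the genes. Tdo2 at ZT 0 measured 11.62, 11.61 and 11.70 in TB livers, against 11.30, 11.40 and 11.52 in WT livers, so TB lay above WT there (difference 0.24, SE 0.11, adjusted p = 0.9998 in limma), with 6.47% of all genes without overlap. Tat at ZT 16 measured 13.04, 12.95 and 13.14 in TB livers, against 12.70, 12.92 and 12.71 in WT livers, with TB above WT (difference 0.27, SE 0.14, adjusted p = 0.93 in limma) and 13.3% of all genes without overlap. At ZT 8 the Cps1 levels were 12.59, 12.69 and 12.62 in TB livers, against 12.74, 12.70 and 12.71 in WT livers, with TB below WT by 0.09 and 9.39% of all genes without overlap. At ZT 12 and ZT 20, where 11% and 6.57% of all genes had groups without overlap, none of the 8 did.

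Whether the genotype difference itself depended on the time was tested with the interaction of genotype and ZT. It passed for 0 of 8 genes and for 0 of all genes (0%). At an unadjusted p under 0.05 it held for 1 of 8, Tdo2 (adjusted p = 1 in limma), against 550 of all genes (2.48%).

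**Figure D2:**
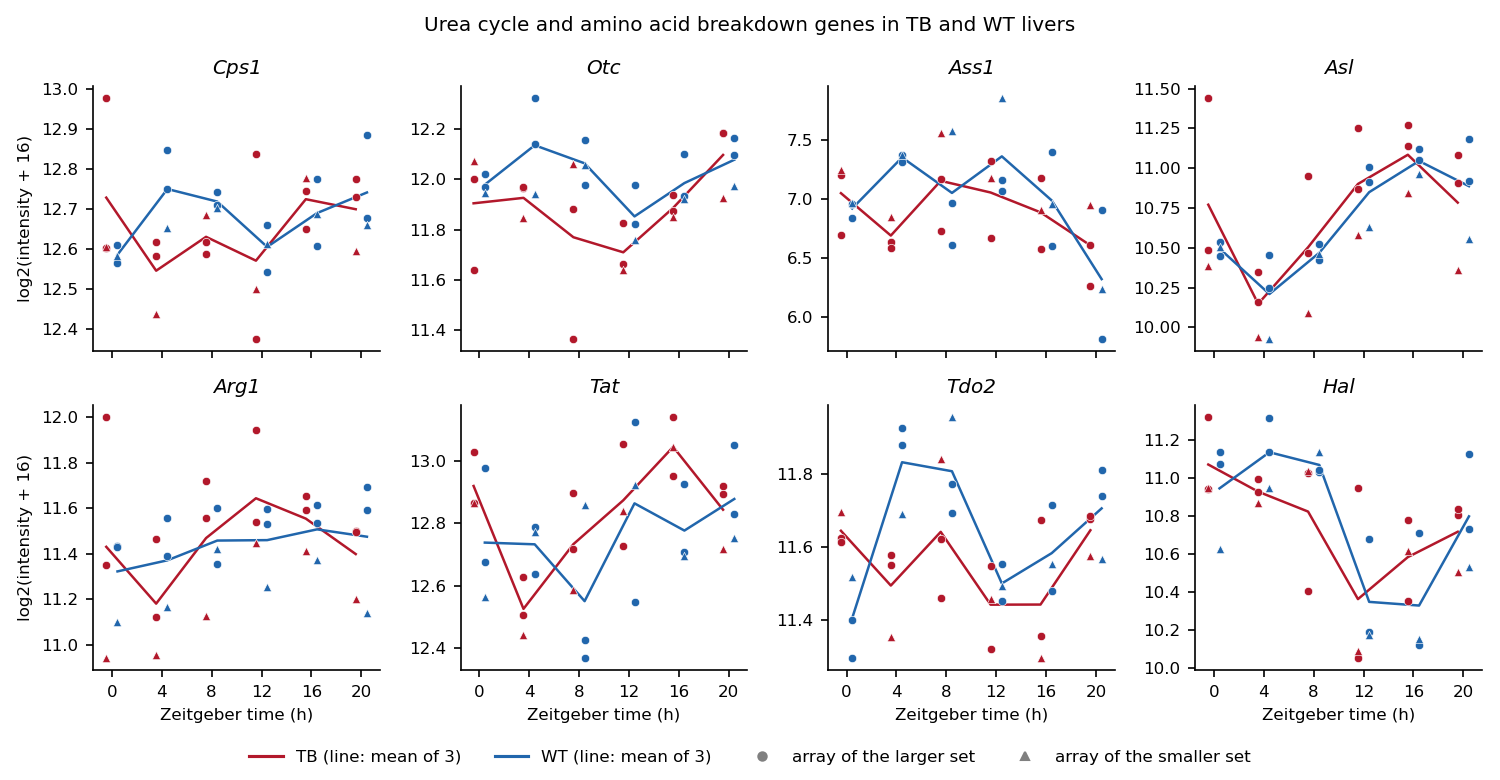
Level of the 8 genes, log2(intensity + 16), against ZT in h; TB points and lines (red) are drawn to the left of WT (blue), each point is an array (circles larger set, triangles smaller set) and each line joins means of 3 arrays. Asl is lowest at ZT 4 and highest at ZT 16 in both genotypes, Hal is highest at ZT 0 to 8, and TB arrays of Tdo2 lie above WT at ZT 0 and below at ZT 4.

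The daily course was tested with a 24 h cosine fitted to each genotype's 18 arrays in a shared limma model. Of the 8 genes, Asl passed in both genotypes and Hal in WT livers. That made 1 of 8 in TB livers, against 1099 of all genes (4.95%), and 2 of 8 in WT livers, against 1431 of all genes (6.45%). Both genotypes passed for 594 of all genes (2.68%).

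Asl, which releases arginine and fumarate, was at its lowest at ZT 4 and its highest at ZT 16. At ZT 0 Asl measured 11.44, 10.49 and 10.38 in TB livers, against 10.45, 10.53 and 10.50 in WT livers. At ZT 4 the Asl levels were 9.94, 10.16 and 10.35 in TB livers, against 9.93, 10.45 and 10.25 in WT livers. At ZT 8 they were 10.95, 10.09 and 10.47 in TB livers, against 10.42, 10.46 and 10.52 in WT livers. TB replicate 1 was high at both ZT 0 and ZT 8, and the ranges overlapped at each of these times. At ZT 12 Asl stood at 11.25, 10.87 and 10.58 in TB livers, against 10.91, 11.01 and 10.63 in WT livers. At ZT 16 it stood at 10.84, 11.14 and 11.27 in TB livers, against 10.96, 11.05 and 11.12 in WT livers. At ZT 20 the values were 10.91, 10.36 and 11.08 in TB livers, against 10.92, 10.55 and 11.19 in WT livers. The 3 arrays at ZT 16 lay above the 3 at ZT 4 in each genotype, and the means differed 1.91-fold in TB livers and 1.79-fold in WT livers.

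The cosine of Asl had an amplitude of 0.38 (SE 0.092) with its peak at ZT 16.4 in TB livers (adjusted p = 0.024 in limma), and of 0.41 (SE 0.092) with its peak at ZT 16.2 in WT livers (adjusted p = 0.011). Within the larger array set the amplitudes were 0.39 in TB and 0.42 in WT livers (adjusted p = 0.036 and 0.015 in limma), and within the 12 arrays of the smaller they were 0.38 in both (adjusted p = 0.44 and 0.34). The TB call was lost without any of 4 arrays: TB ZT 4 replicate 1 (adjusted p = 0.086), TB ZT 4 replicate 2 (0.063), TB ZT 16 replicate 2 (0.053) and TB ZT 16 replicate 3 (0.068). Both Asl calls were lost where the 6 times were fitted as free levels in place of a cosine (adjusted p = 0.16 in TB and 0.17 in WT livers).

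Hal, the histidase that opens histidine breakdown, ran opposite to Asl over the day. At ZT 0 Hal measured 11.32, 10.94 and 10.95 in TB livers, against 11.13, 11.07 and 10.63 in WT livers. At ZT 4 the Hal levels were 10.87, 10.92 and 10.99 in TB livers, against 10.95, 11.32 and 11.14 in WT livers. At ZT 8 they were 10.40, 11.04 and 11.03 in TB livers, against 11.03, 11.13 and 11.04 in WT livers. TB replicate 1 was the single low array of that time. At ZT 12 Hal stood at 10.95, 10.05 and 10.09 in TB livers, against 10.68, 10.19 and 10.18 in WT livers. At ZT 16 it stood at 10.62, 10.35 and 10.78 in TB livers, against 10.15, 10.71 and 10.12 in WT livers. At ZT 20 the values were 10.81, 10.51 and 10.84 in TB livers, against 10.73, 10.53 and 11.13 in WT livers. The highest and lowest time means differed 1.63-fold in TB livers, with overlapping arrays, and 1.75-fold in WT livers, without overlap.

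The amplitude of Hal was 0.30 (SE 0.086) with its peak at ZT 1.7 in TB livers (adjusted p = 0.077 in limma), and 0.42 (SE 0.086) with its peak at ZT 3.1 in WT livers (adjusted p = 0.0042). Within the larger array set the amplitudes were 0.30 in TB and 0.43 in WT livers (adjusted p = 0.16 and 0.021 in limma), and within the smaller 0.33 and 0.44 (adjusted p = 0.68 and 0.40). Apart from the smaller set alone, the WT call held without each array of the 36 in turn and under each other setting tried, with adjusted p between 0.0016 and 0.043. The TB fit passed without TB ZT 12 replicate 1 (0.032), after median centring of the arrays (0.042) and with the array set as a block (0.042). With that block, 2 of 8 genes passed in TB livers and 2 of 8 in WT livers, against 7.48% and 9.03% of all genes. The difference in course between the genotypes was not past the threshold for Hal (adjusted p = 0.99 in limma).

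The other 6 genes passed in neither genotype. Ass1 had an amplitude of 0.16 (SE 0.12) in TB livers and of 0.38 (SE 0.12, peak at ZT 8.2) in WT livers, where its adjusted p was 0.12 in limma and 0.031 without WT ZT 8 replicate 3. Tat, a classic glucocorticoid-induced enzyme, had amplitudes of 0.19 (SE 0.059, peak at ZT 16.9, adjusted p = 0.13 in limma) in TB livers and 0.11 (SE 0.059) in WT livers. Otc reached 0.15 (SE 0.054, peak at ZT 21.8) in TB livers and 0.08 in WT livers. Arg1 reached 0.17 (SE 0.077, peak at ZT 14.1) in TB livers and 0.08 in WT livers. Without TB ZT 0 replicate 1 the TB courses of Otc and Arg1 passed, each at an adjusted p of 0.045. Cps1 and Tdo2 stayed at amplitudes of 0.08 or less in TB livers, and of 0.01 and 0.10 in WT livers. The highest and lowest time means of Tdo2 in WT livers, at ZT 4 and ZT 0, differed 1.34-fold without overlap. With free levels at each ZT its adjusted p in WT livers was 0.081 in limma, not past the threshold, against 0.60 with the cosine.

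A test of whether the cosines differed between the genotypes passed for 0 of 8 genes and 0 of all genes (0%). At an unadjusted p under 0.05 it held for 0 of 8, against 1065 of all genes (4.8%). The lowest adjusted p of the 8 was 0.98, for Otc.

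**Figure D3:**
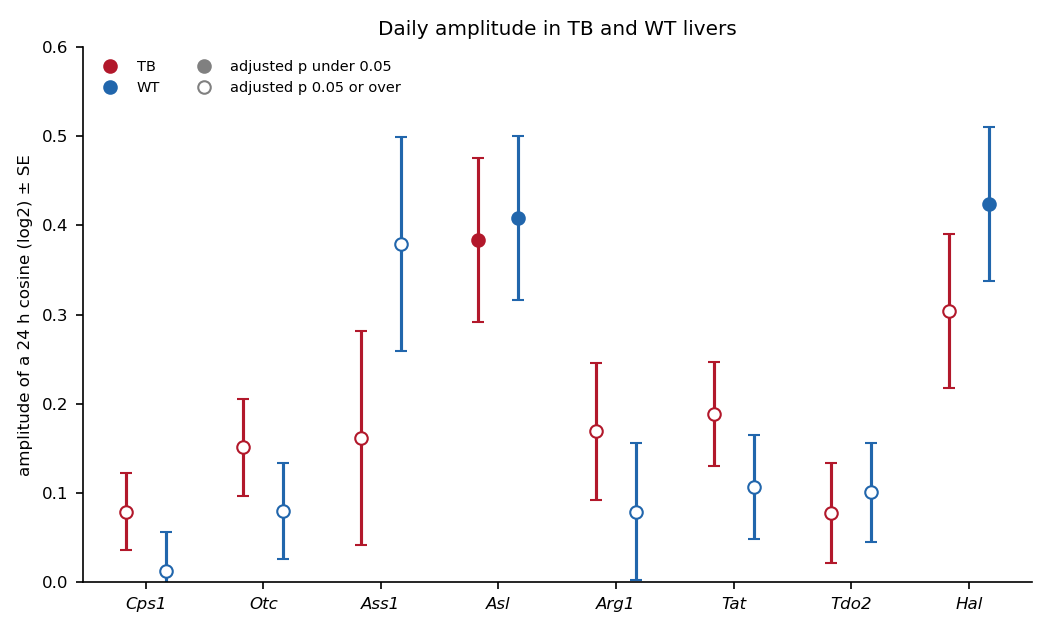
Amplitude of the fitted 24 h cosine (log2, with SE) for each gene in TB (red, left) and WT livers (blue, right), 18 arrays each; filled points passed an adjusted p of 0.05. Asl has amplitudes of 0.38 and 0.41 and Hal of 0.30 and 0.42, and those of Cps1 stay under 0.1.

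To set letters beside these courses, the 100 bases before the start were read for the 5 listed genes with a promoter window in RefSeq (GRCm38.p6), Otc, Ass1, Tat, Tdo2 and Hal. These windows and the TATA letters were chosen after the values were seen. The stretches are chrX:10252205-10252304 (Otc, + strand), chr2:31470170-31470269 (Ass1, + strand), chr8:109990336-109990435 (Tat, + strand), chr3:81975729-81975828 (Tdo2, - strand) and chr10:93488668-93488767 (Hal, + strand). The start is that of the promoter window. For Ass1, Tdo2 and Hal it is the end of the gene's span in RefSeq. The span of Tat begins at 109986078 and that of Otc at 10252230, so the Tat stretch lies wholly and the Otc stretch mostly inside the gene. Capitals mark CACGTG, the E-box known to bind the clock factors, AGGTCA or its complement, the core bound by many nuclear receptors, and TATAA on the gene's strand, the core of a TATA box.
Otc: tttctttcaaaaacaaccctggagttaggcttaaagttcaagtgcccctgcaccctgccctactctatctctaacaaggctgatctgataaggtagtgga
Ass1: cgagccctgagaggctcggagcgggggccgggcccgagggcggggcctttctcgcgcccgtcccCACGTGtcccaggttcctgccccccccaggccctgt
Tat: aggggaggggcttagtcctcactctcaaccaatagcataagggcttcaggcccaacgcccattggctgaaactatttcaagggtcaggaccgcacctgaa
Tdo2: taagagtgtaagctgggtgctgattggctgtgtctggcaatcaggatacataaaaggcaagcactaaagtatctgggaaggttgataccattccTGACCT
Hal: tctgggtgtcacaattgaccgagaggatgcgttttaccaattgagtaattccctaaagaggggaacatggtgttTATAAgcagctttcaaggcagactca

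Over the whole windows, from 250 bases before to 50 after the start, CACGTG was found in Ass1 alone, 36 bases before its start, and in 7.15% of all 32851 windows. AGGTCA was found in Tdo2 alone, read on the other strand and beginning 6 bases before the start, and in 16.3% of all windows. TATAA was found 26 bases before the start of Hal, 229 before that of Tdo2 and within the first bases of Ass1, and in 17.5% of all windows. Neither TGACG, the core of the cAMP response element (20.8% of windows), nor AGAACA, the core of the glucocorticoid response element (19%), was among these letters on either strand. Hal, with the cosine called in WT livers, had TATAA and none of the other letters. Ass1, with CACGTG, passed in neither genotype. Asl, the gene called in both genotypes, had no window, nor had Cps1 and Arg1. Whether these letters go with a daily course was not tested.

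Within groups, 22 of the 28 pairs of listed genes had a correlation above 0 and 6 below, with a median of 0.40. Each array's deviation from its group mean was taken for each gene, over 36 arrays. Asl and Arg1, neighbouring steps of the cycle, had the highest correlation, r = 0.89. It was 0.93 over the TB arrays and 0.77 over the WT arrays, 0.85 without the 2 arrays farthest out in Asl, and 0.80 and 0.63 within the larger and the smaller array set. Cps1 and Hal followed with r = 0.78, then Cps1 with Asl at 0.62 and Otc with Tdo2 at 0.60. The 6 pairs below 0, down to -0.18 for Otc with Arg1, all held Otc or Ass1. These are descriptions of arrays that share their RNA and hybridization, and for Asl and Arg1 the values over the arrays of each set were lower than over all arrays.

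TB ZT 0 replicate 1 lay farthest out for Asl and Arg1. It held 11.44 for Asl, against 10.49 and 10.38 in its group's other arrays, 12.00 for Arg1, against 11.35 and 10.94, and 12.98 for Cps1, against 12.60 in both others. Otc went the other way in that array, at 11.64 against 12.00 and 12.07.

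**Figure D4:**
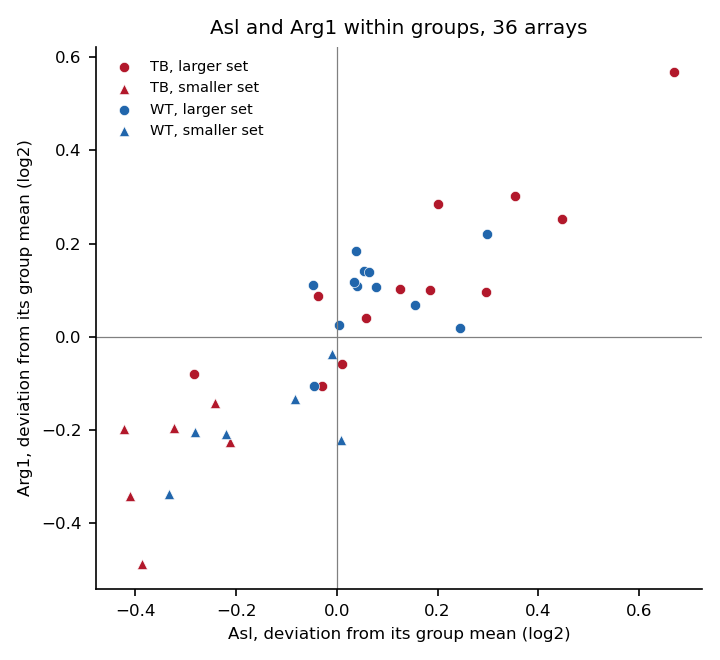
Deviation of Arg1 from its group mean (log2, vertical) against that of Asl (horizontal), each point an array: TB red, WT blue, circles the larger set and triangles the smaller. The 36 points rise together (r = 0.89), with 11 of 12 triangles below 0 for Asl and all 12 below 0 for Arg1.

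Over the 12 group means a different pattern appeared. Asl ran with Tat (r = 0.80) and Arg1 (r = 0.77) and against Hal (r = -0.73), while Cps1 ran with Tdo2 (r = 0.70) and Otc with Tdo2 (r = 0.63). Among 5968 named genes with a mean level of at least 7 and outside the pathway lists, those most like each member over the 12 means were sought by Pearson's r. Hal was most like Tubb5 (r = 0.97), a tubulin, and Hsd3b7 (r = 0.95), an enzyme of bile acid synthesis. Otc was most like Sucnr1 (r = 0.97), the succinate receptor, and Aadac (r = 0.96), a microsomal esterase. Asl was most like Gde1 (r = 0.93) and the polyadenylation factor Cpsf6 (r = 0.92), which was also the gene most like Tat (r = 0.86), followed there by Urad (r = 0.83), of uric acid breakdown.

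Tdo2 was most like Dsg2 (r = 0.92), a desmoglein, and Snx4 (r = 0.90), a sorting nexin. For Ass1 they were Gak (r = 0.90) and Ddx46 (r = 0.87), for Arg1 Ptma (r = 0.89) and Fam53c (r = 0.88), and for Cps1 Dnase2b (r = 0.87) and Gchfr (r = 0.83). Each r was picked as the highest of 5968 over 12 points and describes these means only.

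The rest of the pathway was taken from 12 lists of other enzymes, carriers and regulators, of which 119 genes were measured. In the fit without a block, none of the 119 rose or fell between TB and WT livers in the mean over ZT, with 78 of 119 lower in TB livers. The lowest adjusted p was that of Gldc, a subunit of the glycine cleavage system (difference -0.23, SE 0.064, adjusted p = 0.14 in limma). At an unadjusted p under 0.05 there were 29 of the 119 (24.4%), 22 of them lower in TB livers, against 11% of all genes. In branched-chain amino acid breakdown 18 of 20 genes were lower in TB livers, with a median of -0.11. In serine, glycine and threonine breakdown 12 of 13 were lower, with a median of -0.11, and of 15 amino acid carriers 12 were higher, with a median of 0.06. Lower in TB livers were also 4 of 8 genes that feed the urea cycle, 4 of 5 of tyrosine, 9 of 11 of tryptophan and 3 of 3 of histidine breakdown, 5 of 6 of glutamine, aspartate and alanine handling, 3 of 5 of proline and 1 of 4 of lysine breakdown, 6 of 12 of methionine and cysteine handling and 10 of 17 regulators. The median over all genes was 0.0073.

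Those signs moved with the array set in part. In branched-chain amino acid breakdown 18 of 20 were lower within the larger set (median -0.14) and 16 of 20 within the smaller (median -0.04). In tryptophan breakdown 9 of 11 were lower in the larger set and 5 of 11 in the smaller. Of all genes, 48.8% were lower in the larger set (median 0.0035) and 41.2% in the smaller (median 0.027), so the whole table moved in the same direction. With the array set as a block, 2 of the 119 fell, the leucine breakdown gene Mccc1 (difference -0.23, adjusted p = 0.028 in limma) and Gcsh of the glycine cleavage system (-0.16, adjusted p = 0.047), and 0 of the 8 listed genes passed. That fit called 0.681% of all genes, 0.361% as lower in TB livers. In a fit of the 24 arrays of the larger set alone, chosen after seeing the data, 0 of the 8 listed genes passed, against 1152 of all genes (5.19%). There 7 of the 119 fell, against 3.7% of all genes, and 5 of these were among the 20 branched-chain genes: Mccc1, Hibch, Acad8, Acadsb and Pcca, with differences between -0.31 and -0.19. The other two were Gcsh and Sirt5, and these names were chosen after their values were seen.

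A daily course was called for 26 of the 119 genes in TB livers, for 31 in WT livers and for 18 in both, shares of 21.8%, 26.1% and 15.1% against 4.95%, 6.45% and 2.68% of all genes. The shares over all genes include dim probe sets, and the genes compared were not matched for level. The lists were also chosen with earlier results of these data known, so the excess is a description only. Of the urea cycle's suppliers, Nags, which makes the activator that Cps1 needs, was highest at ZT 0 and lowest at ZT 8 in both genotypes (amplitude 0.25 in TB and 0.22 in WT livers, adjusted p = 0.0028 and 0.012 in limma). The 2 probe sets of Nags disagreed: on their mean the adjusted p was 0.69 in TB and 0.57 in WT livers. Slc25a13, the mitochondrial aspartate carrier that supplies Ass1, had amplitudes of 0.16 (adjusted p = 0.085 in limma) in TB livers and 0.21 (adjusted p = 0.0088) in WT livers, with peaks at ZT 12.4 and 12.3.

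In histidine breakdown, Amdhd1, which acts after Hal, followed the same hours as Hal, with amplitudes of 0.39 in TB and 0.48 in WT livers and peaks at ZT 3.5 and 4.4 (adjusted p = 0.0013 and 6.1e-05 in limma). In the RefSeq table of GRCm38.p6 Hal and Amdhd1 are neighbours on chromosome 10, on opposite strands with their ends facing and 0 annotated genes between them. In tryptophan breakdown, Kynu, the kynureninase, peaked at ZT 0.15 in TB and ZT 1.6 in WT livers with an amplitude of 0.33 in both (adjusted p = 9.7e-05 and 9.4e-05 in limma). Acmsd, which steers the pathway away from NAD, had an amplitude of 0.96 in TB livers (adjusted p = 0.0052 in limma), the largest of the named genes there, and 0.66 in WT livers (adjusted p = 0.085). Kyat1, a kynurenine aminotransferase, passed in WT livers with 0.33 (adjusted p = 0.012 in limma) and had 0.17 in TB livers (adjusted p = 0.42).

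The glycine cleavage genes Gldc and Amt were rhythmic in both genotypes. Gldc had amplitudes of 0.73 in TB and 0.57 in WT livers with peaks at ZT 22.3 and 23.3, and Amt of 0.37 and 0.38 with peaks at ZT 1.6 and 3.1. Of the sulphur amino acid genes, Ethe1, the persulphide dioxygenase, had amplitudes of 0.61 in TB and 0.51 in WT livers, and Cbs, which makes cystathionine, of 0.33 and 0.54. Qdpr, which renews the cofactor of phenylalanine hydroxylation, passed in TB livers with 0.28 (adjusted p = 0.0026 in limma) and had 0.12 in WT livers (adjusted p = 0.46). None of these pairs of courses differed past the threshold.

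Of the 9 genes called in both genotypes with a WT peak between ZT 6 and ZT 14, 4 were carriers, 4 regulators and 1 an enzyme. Slc7a2, a carrier of arginine and ornithine, had amplitudes of 0.68 in TB and 0.81 in WT livers with peaks at ZT 9.0 and 8.5. The glutamine carriers Slc38a2 and Slc38a3 peaked at ZT 9.9 and 10.2 in TB livers and at ZT 9.4 and 9.9 in WT livers. Ppara, a fasting-activated receptor of lipid metabolism, and the insulin-controlled factors Foxo1 and Foxo3 peaked between ZT 11.1 and 11.6 in TB livers and between ZT 10.9 and 11.9 in WT livers. Hoga1, of hydroxyproline breakdown, peaked at ZT 8.3 in TB and ZT 9.2 in WT livers. The TB calls of Hoga1 and Foxo3 were lost after median centring, with free levels at each ZT and in the larger array set alone. Both Foxo1 calls were lost in the larger set alone.

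Of branched-chain genes, Acad8 passed in both genotypes, with amplitudes of 0.20 in TB and 0.21 in WT livers. Its calls were lost with Xist, dim in all 36 arrays, as a covariate (adjusted p = 0.19 in TB and 0.051 in WT livers in limma) and with free levels at each ZT (0.14 and 0.10). In WT livers the call was also lost after median centring (0.064) and in the WT arrays alone (0.071). The Acad8 calls were lost without 8 of the 36 arrays in turn in TB livers and 4 of them in WT livers. Dbt passed in TB livers with 0.21 (adjusted p = 0.049 in limma), against 0.08 in WT livers, and its TB call held in 14 of 36 fits without an array and under 6 of 12 other settings. Auh and Ppm1k passed in WT livers, Auh with 0.11 in TB and 0.25 in WT livers, Ppm1k with 0.21 in TB and 0.28 in WT livers. Aspg, an asparaginase, Gpt2, the mitochondrial alanine aminotransferase, and Dhtkd1, of lysine breakdown, passed in WT livers with amplitudes of 0.36, 0.30 and 0.32, where TB livers had 0.26, 0.18 and 0.19 (adjusted p = 0.059, 0.28 and 0.25 in limma). That a gene passed in 1 genotype does not show a difference, since the test of that difference passed for 0 genes.

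Peak times of the 18 genes rhythmic in both genotypes fell into 2 windows chosen after the peaks were seen. All 9 with a WT peak between ZT 20 and ZT 6 peaked earlier in TB livers, by a median of 1.24 h. Of the 9 with a WT peak between ZT 6 and ZT 14, 4 peaked earlier in TB livers, with a median shift of 0.19 h. Over all genes rhythmic in both genotypes, 225 of 273 in the first window were earlier in TB livers (median shift -0.92 h), and 156 of 235 in the second (median shift -0.45 h). The SE of a peak was between 0.43 and 1.0 h, the largest shift, that of Acad8 (-3.67 h), had an adjusted p of 0.98 in limma, and Asl was later in TB livers by 0.26 h.

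**Figure D5:**
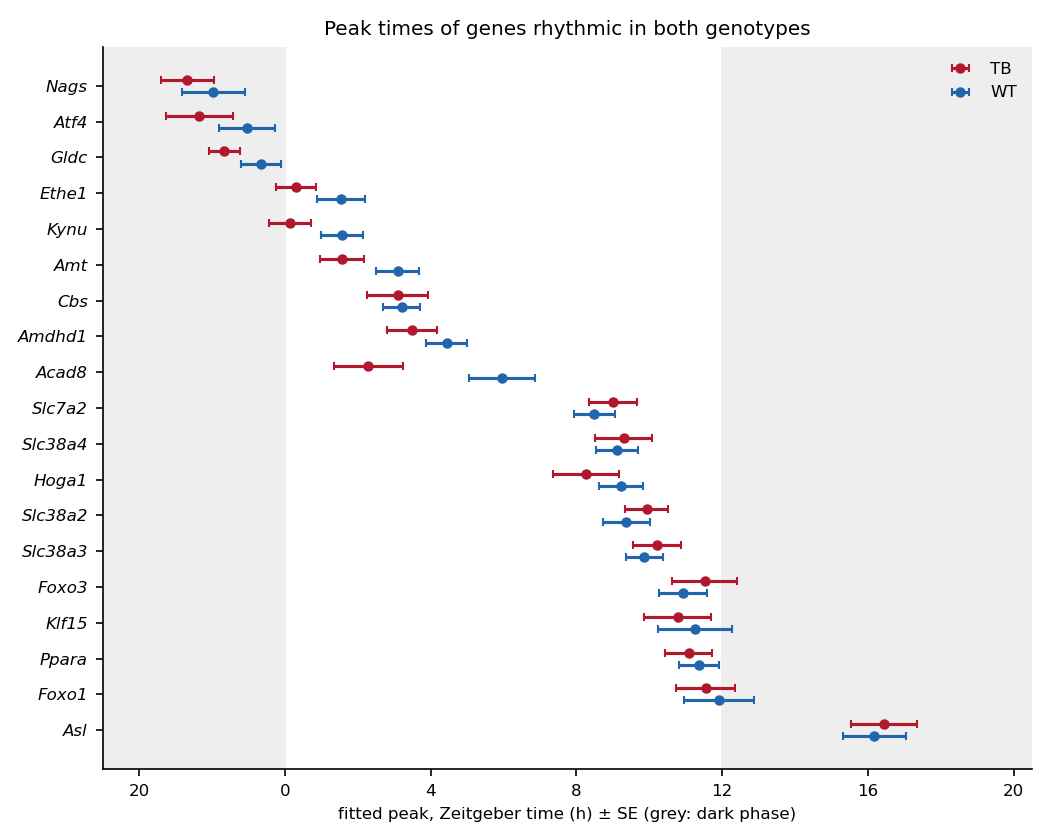
Fitted peak (ZT in h, with SE) of Asl and the 18 other pathway genes with a daily course called in both genotypes, TB (red) above WT (blue), ordered by the WT peak; grey marks the dark phase. From Nags down to Acad8 all 9 red points lie left of the blue ones, and from Slc7a2 to Foxo1 4 of 9 do.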

How the data were processed

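Livers were frozen in liquid nitrogen, per the labels' protocols, total RNA was extracted and cleaned on columns, and biotin-labelled target was hybridised. The authors deposited 1 linear intensity value per probe set, for 41345 probe sets and 36 arrays. They were made with Affymetrix Expression Console 1.1.1 and PLIER 2.0, per the submitters' processing notes, with settings and normalization not given in the sources used. Array medians ran from 36.3 to 43.3 units and 23.0% of values were under 16. Depth has no counterpart here: the number of arrays, 3 a group, limits the precision.

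Names came from the platform's annotation (23521 with 1 symbol, 1814 with several, 16010 with none), and 23328 (99.2%) of those with 1 symbol matched RefSeq, GRCm38.p6, by Entrez identifier. Where a gene had several probe sets (1082 genes), that with the highest mean was used. Values became log2(value + 16), with no further normalization or filter. limma 3.58.1 in R 4.3.3 fitted 12 group means, for the genotype difference, the differences at each ZT and the interaction, and a 24 h cosine per genotype. P-values were adjusted over all 22180 genes by the Benjamini-Hochberg method. The scripts were tested on simulated data.

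The alleles of the TB mice are not reported here. The members and lists were chosen with earlier results of these data known. All members are named. Of each other list up to 2 genes with the smallest p among those past the threshold in each comparison are named, and for each member the 2 genes most alike over group means. Genes named for their peak time or lowest p were chosen after their values were seen. Alternatives were the pseudocount, quantile normalization, median centring, removal of dim genes, the mean over probe sets, blocks for replicate number and array set, Xist as a covariate, a variance trend with a robust fit, free levels in place of the cosine, fits of fewer arrays, and leaving out each array.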

Additional observations from a re-analysis of the deposited data

Results flagged for a closer look

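The difference between TB and WT livers pointed in opposite directions at 2 times for 2 genes, with every TB array on the same side of every WT array at each time. For Tdo2 it was 0.24 at ZT 0 and -0.34 at ZT 4, which differ by 0.57 (SE 0.16). The interaction of genotype and ZT had an adjusted p of 1 in limma for Tdo2. For Tat it was 0.27 at ZT 16 and -0.21 at ZT 4, which differ by 0.47 (SE 0.20), with the same adjusted p for the interaction. These pairs of times were picked because their groups did not overlap, so their differences have no test of their own.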

How the results depend on the processing

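No listed gene passed the genotype difference, a difference at any ZT, the interaction or the difference in course under any setting run or without any single array. The count of all genes with a genotype difference, 39, was 15 with a pseudocount of 1, 14 with Xist as a covariate, 151 with the array set as a block, 1152 in the larger set alone (added after seeing the data), and between 11 (without TB ZT 20 replicate 2) and 109 (without TB ZT 8 replicate 2) with single arrays left out. The replicate numbers of the titles were tried as a replicate block: same-numbered TB and WT arrays correlated between -0.05 and 0.41, 14 of 18 pairs over 0.1 and 12 of 18 TB arrays best with their own number, a hint from the data, not the design, since not every pair exceeded 0.1. The smaller-set array had the same number in TB and WT at 6 of 6 ZT, so same-numbered arrays also share a set. With the block the count was 59. The count at single ZT, 1, was 2 after quantile normalization, without dim genes, with the replicate block, with the robust fit and within each ZT's arrays, 3 with the array set as a block, 0 after median centring and with Xist, and 0 to 22 (without WT ZT 12 replicate 1) with arrays left out. The interaction count, 0, was 1 with the replicate block and 0 to 3 with arrays left out, and that for a difference in course, 0, was 0 to 1. Daily courses in TB livers, 1099, became 1660 with the array set as a block and 482 with free levels (759 to 1501 with arrays left out). Those in WT livers, 1431, became 2002 with the array set as a block and 596 with free levels. Of the listed genes, 2 passed in TB livers after median centring and with the array set as a block, 0 with free levels and with each genotype fitted alone (Asl adjusted p = 0.12), and 0 to 3 with arrays left out. In WT livers 1 passed with free levels and 2 to 3 with arrays left out. The Arg1 difference was -0.0029 after quantile normalization and -0.016 after median centring, and -0.034 to 0.055 with arrays left out; that of Asl ran from -0.017 to 0.075 and that of Hal from -0.072 to 0.012. Of 43 called results for single named genes, 23 kept the call under every other setting and without each array. Among those lost with free levels were the calls of Acmsd and Cbs in TB livers. In WT livers they included those of Slc25a13, Kyat1, Gpt2, Auh, Ppm1k and Dhtkd1. The cause of these shifts was not tested.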
